A study of Mus musculus with 8 samples.

Results

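Pmp22 and Erbb3, both known from peripheral nerve, were followed in mouse leg muscle that had lost its nerve supply. The genes were found by their symbols in the platform annotation, each on 1 probe set (6781612 for Pmp22 and 6778044 for Erbb3), and they are 2 of 14860 genes with a single symbol. They were selected on their log2 intensities in these same denervated and innervated muscles, so their difference is described below without a test. All 8 arrays measured total RNA of the tibialis anterior, a predominantly fast muscle of the lower hind leg, from male C57BL/6 mice aged 8 weeks. The denervated group (4 arrays) came from the side whose sciatic nerve had been cut 7 days earlier, and the innervated group (4 arrays) from the other leg of operated mice, so neither a sham-operated nor an untouched animal served as control. The labels name no genetic modification and do not say whether muscles were pooled or whether each array stands for its own animal, so the spread given here is that between samples and may be partly technical.

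PMP22 is a small protein with membrane-spanning segments that sits in the compact myelin of peripheral nerve, where Schwann cells wrap axons. A changed dose of its gene underlies common forms of the inherited neuropathy Charcot-Marie-Tooth disease, and the gene was also found as a growth arrest-specific gene in fibroblasts. ErbB3 is a receptor for neuregulins with very little kinase activity of its own, which signals by pairing with other ErbB receptors, above all ErbB2. In Schwann cells this receptor pair reads neuregulin on the axon surface and governs survival and myelination, and ErbB receptors are also found at the neuromuscular junction.

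The mouse Pmp22 gene has alternative first exons, and RefSeq gives 4 start sites on chromosome 11 (GRCm38.p6, forward strand), spread over 3821 bases. The array gives 1 value for the gene and does not tell transcripts from these starts apart, which is why the outermost windows are shown. Each window holds the 250 bases before a start, chr11:63128732-63128981 for the first and chr11:63132553-63132802 for the last. Capitals mark GC boxes, searched as GGGCGG on both strands.
Pmp22 first start: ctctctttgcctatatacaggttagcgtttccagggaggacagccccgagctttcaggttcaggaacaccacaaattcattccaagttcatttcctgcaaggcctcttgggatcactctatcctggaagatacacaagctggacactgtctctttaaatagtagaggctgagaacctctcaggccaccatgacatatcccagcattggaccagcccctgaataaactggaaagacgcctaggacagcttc
Pmp22 last start: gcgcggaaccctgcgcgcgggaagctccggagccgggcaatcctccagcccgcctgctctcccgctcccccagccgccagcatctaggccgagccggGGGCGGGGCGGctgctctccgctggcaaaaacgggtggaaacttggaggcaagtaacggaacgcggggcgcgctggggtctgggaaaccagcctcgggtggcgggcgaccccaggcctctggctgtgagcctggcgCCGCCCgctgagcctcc
The first window had a GC content of 48.8% and no GC box. The last had a GC content of 73.6% and 3 GC boxes, 2 of which overlap each other. Over 32841 such mouse windows the median GC content was 52.4%, and 32.7% held a GC box. Neither window held the SOX core ACAAAG, the EGR core GCGGGGGCG or the TATA box TATAAA, which 16.5%, 2.57% and 12.4% of all windows held; these are statements about letters only.

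Pmp22 was bright in innervated muscle and lower in denervated muscle in each of the 4 same-number pairs, whereas Erbb3 was dim on all 8 arrays and slightly higher after denervation. The values are log2 intensities, so a difference of 1 is a doubling. For Pmp22 the innervated arrays read 10.12, 9.26, 7.48 and 8.71 in replicates 1 to 4, and the denervated arrays read 7.78, 7.19, 6.70 and 7.37. The groups overlapped, because innervated replicate 3 lay below denervated replicate 1. The group means were 8.89 ± 1.11 and 7.26 ± 0.45 (SD, n = 4), a mean difference of -1.63, or 3.1-fold lower. The 4 pair differences were -2.34, -2.07, -0.77 and -1.34, with an SD of 0.71. The smallest difference was that of replicate 3 and the largest that of replicate 1. In the linear model used for all genes, 48 of 14860 genes had a lower estimate. Over all genes 4.89% passed as lower in denervated muscle.

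Erbb3 read 5.18, 5.42, 5.35 and 5.28 on innervated replicates 1 to 4 and 5.58, 5.59, 5.58 and 5.52 on the denervated ones. Every denervated value lay above every innervated one, an arrangement that 5.32% of all genes showed. The means were 5.31 ± 0.10 and 5.57 ± 0.03 (SD, n = 4), and the difference of 0.26, or 1.2-fold, had pair values of 0.41, 0.17, 0.23 and 0.24. On every array Erbb3 stood between the lower quartile and the median of the probe sets of that array. The table used here holds no detection values, so the levels cannot be told from background, and the fold is one of intensity. Pmp22 stood above the array median on all 8 arrays, by 0.70 (denervated replicate 3) to 4.24 (innervated replicate 1). In whole muscle, fewer cells of a type and less RNA per cell cannot be told apart.

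**Figure D1:**
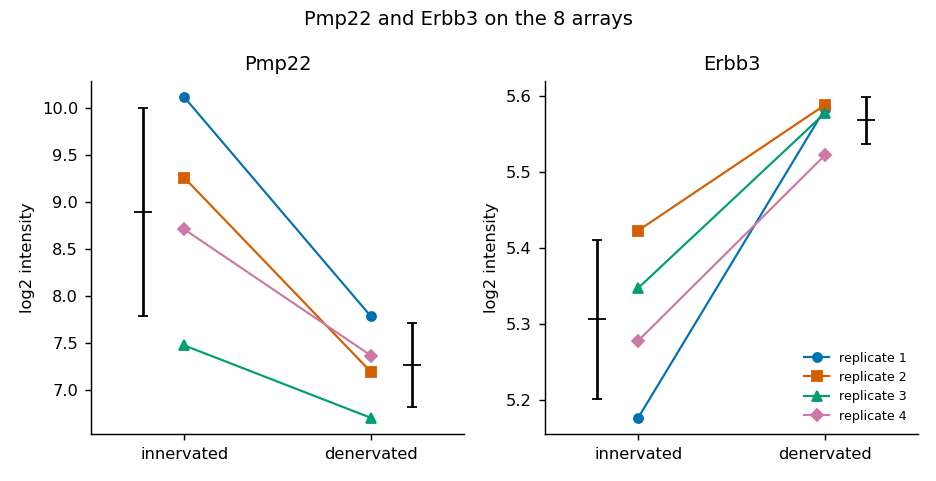
Log2 intensity of Pmp22 (left) and Erbb3 (right) on the 8 arrays, with coloured lines joining innervated and denervated arrays of the same replicate number and black bars showing mean and SD of 4 arrays. Pmp22 runs from 7.48 to 10.12 in innervated muscle and every line goes down, while the Erbb3 lines go up from between 5.18 and 5.42 to between 5.52 and 5.59; the axes differ and do not start at 0.

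Replicate 3 stood apart from the other arrays: its 2 arrays had an SD over probe sets of 1.36 and 1.25, against 1.45 to 1.56 on the other 6, and denervated replicate 3 correlated with its group at 0.927 to 0.930. Without replicate 3 the Pmp22 difference was -1.92 and that of Erbb3 0.27. Muscle fibre genes were bright on all arrays, with the skeletal actin gene Acta1 between 11.69 and 12.56.

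The unequal level of Pmp22 among innervated muscles was itself unusual. Its SD between the 4 innervated arrays, 1.11, was exceeded by 7 of 14860 genes, against a median gene SD of 0.175. Its lowest and highest innervated values were 6.25-fold apart. The lowest was that of replicate 3 (7.48), whose arrays stood apart, and the other innervated arrays read 8.71 to 10.12. The spread without replicate 3 was not computed, so how far it rests on that replicate is not known. Among denervated arrays its SD was 0.45, exceeded by 12.8% of genes, and the extremes were 2.11-fold apart. Erbb3 lay at the other end among denervated arrays only, with an SD of 0.03 that 0.458% of genes undercut. Its innervated SD of 0.10 was undercut by 19.4% of genes. Whether the Pmp22 spread differed between the groups was not tested.

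**Figure D2:**
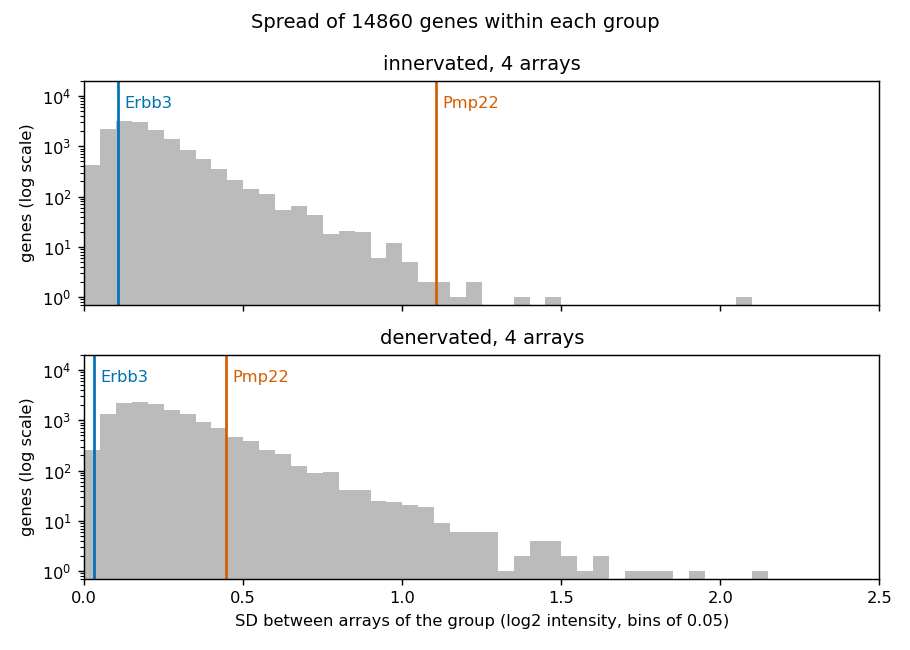
Number of genes (log scale) by the SD of their log2 intensity between the 4 arrays of a group, in bins of 0.05, for innervated (top) and denervated (bottom) muscle; vertical lines mark Pmp22 and Erbb3. Pmp22 sits at 1.11, in the far tail of the innervated panel, and at 0.45 in the denervated one.

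The 5 genes whose values followed Pmp22 most closely over the 8 arrays, among those at least as bright as the median gene, were Ecrg4 (Pearson r = 0.979), the ubiquitin ligase gene Nedd4l (0.978), the mitochondrial gene Opa3 (0.964), the matrix enzyme gene Loxl2 (0.962) and the catenin-like gene Ctnnal1 (0.962). These genes were picked for a high r, so the figures describe likeness only, and they include the difference between groups. With the group means subtracted, r for the same genes was 0.933 to 0.973, and without replicate 3 (6 arrays) 0.84 to 0.995. Ecrg4, which encodes a secreted peptide precursor, ran from 8.20 on innervated replicate 1 down to 6.66 on innervated replicate 3. Its group means were 7.41 and 6.59. The difference between groups is not tested for these genes, since it is part of what they were picked for.

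Schwann cell genes were the first group set beside Pmp22. Of 17 measured markers of myelinating Schwann cells, Pmp22 not among them, 3 fell, none rose and 14 did not pass, against 4.89% of all genes that fell. The list median was -0.14, against -0.0058 over all genes. Ugt8a, which makes the myelin lipid galactosylceramide, read 6.46, 5.73, 5.29 and 5.25 on innervated replicates 1 to 4 and 4.57, 4.82, 4.46 and 4.51 on denervated ones, and fell by 1.09 (SE 0.19, adjusted p = 0.0152). The groups did not overlap, as for 7.4% of all genes in this direction. Each denervated Ugt8a value lay below the lower quartile of the probe sets of its array (4.98 to 5.36) and cannot be told from background. Drp2, the dystrophin-related partner of periaxin in Schwann cells, read 7.31, 6.60, 5.90 and 6.12 against 5.43, 5.37, 5.64 and 5.34, and fell by 1.04 (SE 0.24, adjusted p = 0.0374). Mal, a proteolipid of myelin and of epithelial membranes, read 7.91, 7.08, 6.41 and 6.27 against 5.81, 5.65, 6.05 and 5.57, and fell by 1.15 (SE 0.26, adjusted p = 0.0381). As for Pmp22, innervated replicates 1 and 2 were the highest arrays of all 3 genes, while the denervated arrays lay close together.

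Not all Schwann cell markers moved this way. Mbp, myelin basic protein, was high on innervated replicates 1 and 2 (7.06 and 6.51) but read 6.08 and 6.12 on the others and 5.94 to 6.21 after denervation (change -0.33, SE 0.18, adjusted p = 0.34). The transcription factor Sox10, which defines the Schwann lineage, had means of 6.38 ± 0.15 and 6.45 ± 0.19 (SD, n = 4; change 0.07, adjusted p = 0.846), and the calcium-binding protein gene S100b means of 5.88 ± 0.35 and 6.01 ± 0.19 (change 0.13, adjusted p = 0.794). With the group means subtracted, the median r of the 17 markers with Pmp22 was 0.405, against -0.108 over all genes. Of the 17 markers 3 exceeded 0.8, against 2.01% of genes. Without replicate 3 the medians were 0.106 and 0.0115. Fibroblast, endothelial and muscle fibre markers had higher medians of 0.64, 0.508 and 0.495, and the other cell type lists lower ones. Without replicate 3 these higher medians became 0.759, -0.481 and -0.063. The summed intensity of the 17 markers was 931 to 1348 on innervated and 814 to 924 on denervated arrays. The count of 3 rests on few samples: with limma it was 1 without replicate 1, 0 without replicate 2 (3 at an unadjusted p under 0.05), 1 without replicate 4 and 4 without replicate 3, and without the block the adjusted p of Mal was 0.0688. Without replicate 2 Ugt8a missed the threshold narrowly (adjusted p = 0.0517). With the dimmest 25% of genes left out 2 of 13 markers fell, and Ugt8a has no value there.

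**Figure D3:**
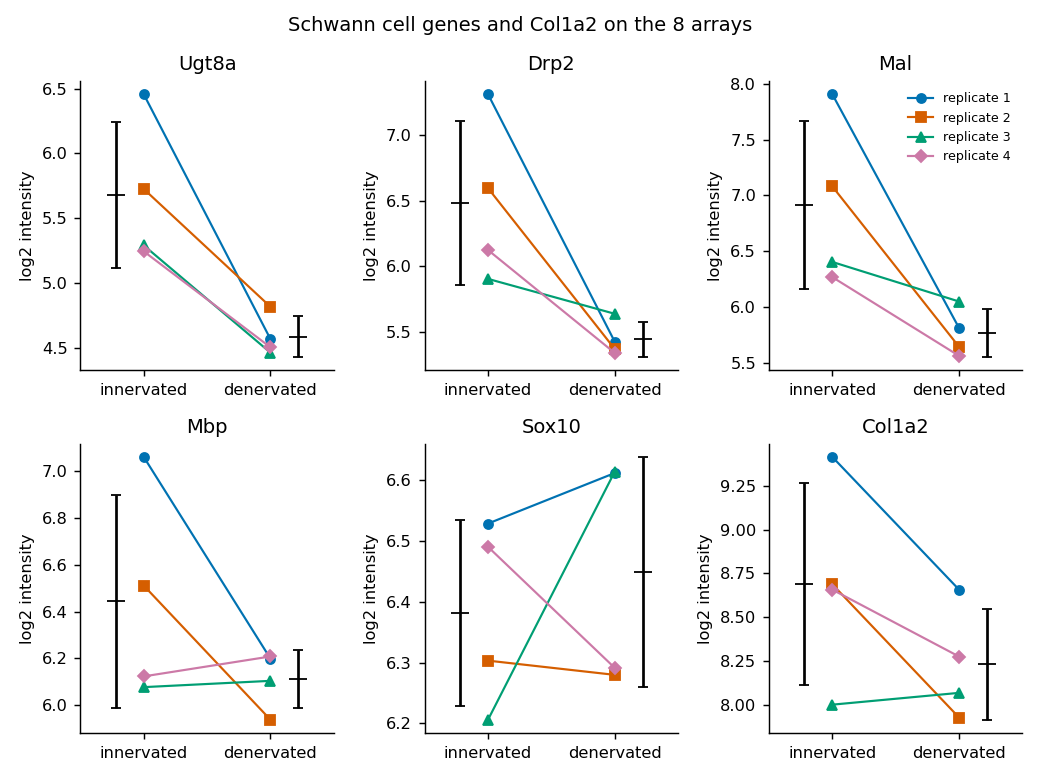
Log2 intensity of 5 Schwann cell genes and of the collagen gene Col1a2 on the 8 arrays, drawn as for Pmp22 (lines join equal replicate numbers, black bars are mean and SD of 4 arrays). Ugt8a, Drp2 and Mal are highest on innervated replicates 1 and 2 and low on every denervated array, whereas Sox10 lines cross; each axis has its own range.

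Fibroblasts are also known to express Pmp22, and markers of other cells of muscle were read on the same arrays. The fibrillar collagen gene Col1a2 read 9.41, 8.69, 8.00 and 8.66 on innervated replicates 1 to 4, the same highest and lowest arrays as Pmp22, and 8.66, 7.93, 8.07 and 8.28 on denervated ones. Its r with Pmp22 after subtraction of the group means was 0.935, and that of Col1a1 0.88. Neither passed as changed (-0.46 and -0.49, adjusted p of 0.135 and 0.106), although both did without replicate 3 (0.019 and 0.00846). Of 11 fibroblast markers 2 rose, the matricellular gene Postn by 1.67 and Lum by 0.60, and none fell, against 3.56% and 4.89% of all genes; at an unadjusted p under 0.05, 3 were higher and 4 lower. Without replicate 3, and with array weights, 3 of the 11 fell, and without replicate 2 none rose (2 at an unadjusted p under 0.05, limma). The list's median r with Pmp22 was 0.64, or 0.759 without replicate 3. Its summed intensity was 4677 to 7274 on innervated and 4746 to 6302 on denervated arrays.

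Of 9 macrophage and leukocyte markers 3 rose (3.56% of all genes did), the adaptor gene Tyrobp by 1.56, the lysosomal gene Cd68 by 1.19 and the Fc receptor chain gene Fcer1g by 0.90, and the summed intensity went from 647 to 800 up to 1182 to 2297. Of 11 endothelial markers 3 fell (4.89% of all genes did), the VEGF receptor genes Kdr and Flt1 by 0.77 and 0.58 and Emcn by 0.72, with sums of 1157 to 1662 against 916 to 1238. Without the block 1 of the 11 fell, Flt1 and Emcn being at an adjusted p of 0.152 and 0.0679, and without replicate 1 or 4 limma called none (5 and 6 lower at an unadjusted p under 0.05). Of 9 muscle fibre genes 3 fell (4.89% of all genes did), the glycogen phosphorylase gene Pygm by 1.35, the creatine kinase gene Ckm by 1.00 and Mylpf by 0.51, with sums of 40389 to 43921 against 28887 to 35140. The list median was -0.40, but -0.15 after quantile and -0.16 after cyclic loess normalization, where 2 of the 9 fell. For Mylpf the adjusted p was then 0.127 and 0.0895 (limma). With 1 replicate left out the adjusted p of Postn, Lum, Fcer1g, Kdr, Flt1, Emcn and Mylpf reached 0.0646, 0.0731, 0.13, 0.0886, 0.0971, 0.151 and 0.154, each without replicate 1 except Postn (replicate 2) and Flt1 (replicate 4). Of 8 satellite cell markers 1 fell (4.89% of all genes did), Cd34 by 0.42. Its adjusted p was 0.377 without the block and 0.0649 to 0.188 when any replicate was left out. None of 4 perineurial, 7 pericyte and smooth muscle or 6 adipocyte markers was called with limma. At an unadjusted p under 0.05, 0, 2 and 1 of them were lower and none higher. With the dimmest genes left out, or with the mean of probe sets, 1 of the 7 pericyte and smooth muscle markers fell. Of 10 axonal and neuronal genes 1 rose (3.56% of all genes did), none fell and 9 did not pass. The riser was Uchl1, which encodes a ubiquitin hydrolase, by 1.56. Only 4 of the 10 remained with the dimmest 25% of genes left out, and 1 of these rose. At an unadjusted p under 0.05, 1 of the 10 was higher and 1 lower (limma), and the list median was -0.019. The part of any of these cells in the Pmp22 difference was not tested.

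The relatives of Pmp22 were next. Of the 6 other members of the PMP22 and EMP family, all of them measured, none rose or fell with limma, and 1 was lower at an unadjusted p under 0.05. The epithelial membrane protein genes Emp1, Emp2 and Emp3 had changes of -0.05 (SE 0.11), -0.02 (SE 0.11) and 0.16 (SE 0.13). The p53 effector gene Perp read 5.95, 6.04, 6.30 and 6.14 on innervated replicates 1 to 4 and 5.51, 5.92, 5.92 and 5.75 on denervated ones (change -0.34, adjusted p = 0.112), and it passed with array weights (0.0478). Tmem47 and the lens gene Lim2 had changes of -0.10 and -0.07. Although these genes were called in neither direction, the 6 had a median r of 0.74 with Pmp22 once group means were subtracted, with Tmem47 at 0.854 and Emp3 at 0.819, and a median of 0.663 without replicate 3; Perp ran the other way at -0.822.

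**Figure D4:**
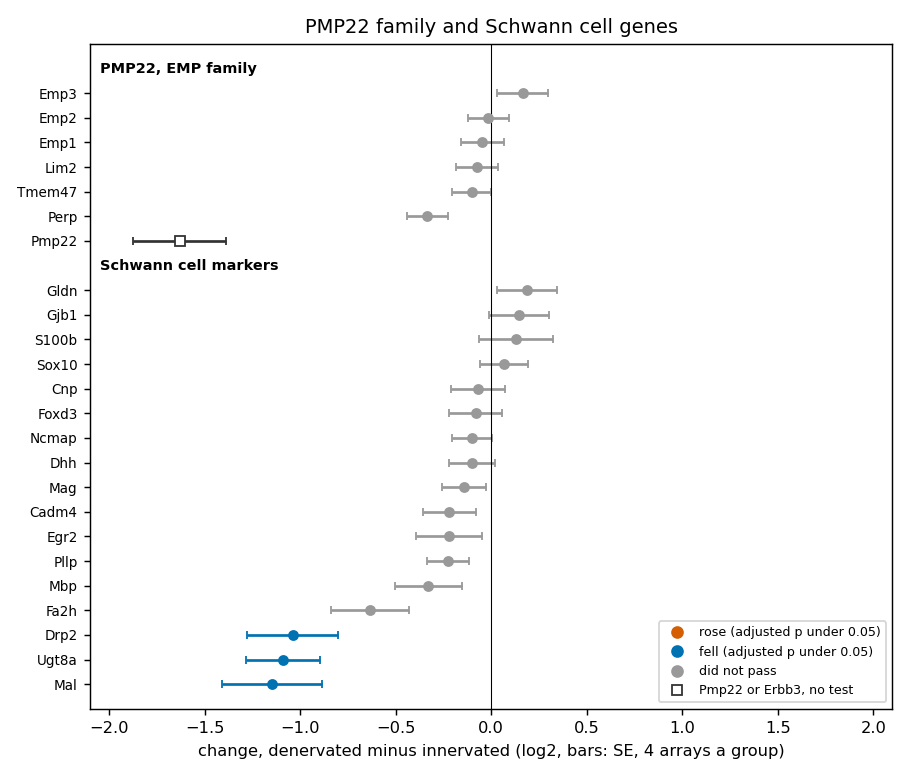
Change from innervated to denervated muscle (log2, bars are SE from limma over 4 arrays a group) for the PMP22 and EMP family and for 17 Schwann cell markers. Mal, Ugt8a and Drp2 (blue) lie near -1 and passed at an adjusted p under 0.05, Pmp22 (open square, not tested) lies at -1.63, and the other genes, in grey, lie between -0.63 and 0.19.

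Among 11 measured transcription factors of myelin genes none was called with limma (2 higher and 1 lower at an unadjusted p under 0.05). With array weights, and also without replicate 3, 2 of the 11 rose, and after cyclic loess normalization 1 did. Egr2, the zinc finger factor that drives myelin genes, had means of 6.30 ± 0.27 and 6.08 ± 0.24 (SD, n = 4; change -0.22, adjusted p = 0.554). Of 4 measured binding partners of the PMP22 protein 1 rose, against 3.56% of all genes. Canx, the endoplasmic reticulum chaperone calnexin, rose by 0.51 (SE 0.12, adjusted p = 0.0363, 0.0517 after median centring, and 0.0783, 0.126 and 0.192 without replicates 1, 2 and 4). The laminin receptor gene Itga6 did not pass at a change of -0.44 (adjusted p = 0.0611), although 4 of the alternatives called it, among them the fit without replicate 3 (0.0193). None of the 6 other growth arrest-specific genes was called with limma (1 higher and 1 lower at an unadjusted p under 0.05). With replicate as a random block or quantile normalization 1 of these 6 rose, and with array weights 1 fell.

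Of the 22 other measured genes of Charcot-Marie-Tooth disease, 3 rose and 3 fell, against 3.56% and 4.89% of all genes. Gdap1, which encodes a protein of the outer mitochondrial membrane, read 6.62, 6.37, 6.62 and 6.35 on innervated replicates 1 to 4 and 4.63, 4.52, 5.14 and 4.46 on denervated ones. It fell by 1.80 (SE 0.12, adjusted p = 0.000423), with no overlap between groups, as for 7.4% of all genes in this direction. Each denervated Gdap1 value lay below the lower quartile of the probe sets of its array and cannot be told from background. Fgd4, an activator of the GTPase Cdc42, fell by 1.36 (SE 0.13, adjusted p = 0.00136), and Mfn2, the mitochondrial fusion gene mitofusin, by 1.08 (SE 0.13, adjusted p = 0.00381). The small heat shock protein gene Hspb8 rose by 0.95 (SE 0.12, adjusted p = 0.00358). Gars, a glycyl-tRNA synthetase gene, and the lamin gene Lmna rose by 0.63 and 0.47, but both missed the threshold without the block (adjusted p of 0.0787 and 0.102), after median centring (0.0648 and 0.0677) and without replicate 1, 2 or 4 (up to 0.169 and 0.238).

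Of 16 injury-response Schwann cell genes, which such cells raise after nerve damage, 2 rose and none fell, against 3.56% and 4.89% of all genes, and 6 were higher at an unadjusted p under 0.05. With replicate as a random block 4 rose, with array weights 5, and without replicate 1, 2 or 4 only 1. Ncam1, the neural cell adhesion molecule, read 5.57 to 5.68 on innervated arrays and 7.04, 7.13, 6.36 and 7.60 on denervated ones, and rose by 1.39 (SE 0.19, adjusted p = 0.00549). The transcription factor gene Jun rose by 0.69 (SE 0.11, adjusted p = 0.0111, and 0.0539 to 0.0794 without replicates 1, 2 or 4). Muscle fibres also express both genes. The nerve growth factor receptor gene Ngfr had a change of 0.37 and the glial growth factor gene Gdnf of 0.45, each above its partner in all 4 pairs, but neither passed (adjusted p of 0.112 and 0.0944). Gdnf did with replicate as a random block (0.0464) and with array weights (0.0199). Sox2 had a larger change of 0.79 (adjusted p = 0.13), and passed with array weights (0.005) and without replicate 3 (0.00158). Shh, at 0.41 (adjusted p = 0.0822), passed with a random block (0.0343), cyclic loess normalization (0.0438) and array weights (0.0335). The median change of the 16 genes was 0.03.

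The family of Erbb3 was then compared. Neither Egfr nor Erbb2, the other receptors measured, was called with limma, and none was at an unadjusted p under 0.05. Erbb2, the usual partner of Erbb3, read 5.77, 6.00, 5.80 and 5.82 on innervated replicates 1 to 4 and 5.86, 5.68, 5.86 and 5.91 on denervated ones, a change of -0.02 (SE 0.12, adjusted p = 0.952). Egfr, the epidermal growth factor receptor, had means of 6.68 ± 0.09 and 6.50 ± 0.33 (SD, n = 4; change -0.18, SE 0.15, adjusted p = 0.591). Both groups of either gene overlapped.

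Of 8 ErbB ligand genes 1 rose and none fell, against 3.56% and 4.89% of all genes. Btc, the ligand betacellulin, read 5.30, 5.40, 5.41 and 5.17 on innervated replicates 1 to 4 and 6.00, 5.81, 5.95 and 5.53 on denervated ones, without overlap (as for 5.32% of all genes in this direction). It rose by 0.50 (SE 0.11, adjusted p = 0.0309), but its adjusted p was 0.0579 when the block was dropped and 0.0888 to 0.157 without replicates 1, 2 or 4. Epgn, the ligand epigen, read 4.41 to 4.88 in innervated and 4.74, 6.23, 5.40 and 5.32 in denervated muscle, and its change of 0.80 did not pass (adjusted p = 0.0645, and 0.0474 with array weights). Hbegf, the heparin-binding ligand, was lower in all 4 pairs at a change of -0.39 (adjusted p = 0.0775), and passed with replicate as a random block (0.0294), with the dimmest genes left out (0.0481) and with array weights (0.0243). The neuregulin genes Nrg1 and Nrg4 had changes of -0.17 and -0.16 (adjusted p of 0.572 and 0.469), and both were highest on innervated replicate 3 (5.67 and 5.33).

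Genes that carry or restrain ErbB signals followed. Of 18 adaptors and regulators 4 rose and 1 fell, against 3.56% and 4.89% of all genes, with a list median of 0.05. Pik3r3, a regulatory subunit of the phosphoinositide kinase that ErbB3 recruits, read 7.01, 7.29, 6.95 and 7.08 on innervated replicates 1 to 4 and 8.69, 8.45, 7.76 and 8.97 on denervated ones, and rose by 1.38 (SE 0.18, adjusted p = 0.00503). Errfi1, an inhibitor of ErbB receptor kinases, rose by 1.14 (SE 0.18, adjusted p = 0.0101), and Erbin, which binds ErbB2, by 0.94 (SE 0.14, adjusted p = 0.00923). Pa2g4, whose product EBP1 binds ErbB3, rose by 0.88 (SE 0.17, adjusted p = 0.0213, and 0.0906 to 0.092 without replicates 1, 2 or 4). Lrig1, a membrane protein that speeds removal of ErbB receptors, read 7.17, 6.88, 6.66 and 7.08 against 6.21, 6.23, 5.97 and 6.11, and fell by 0.82 (SE 0.11, adjusted p = 0.00555). Rnf41, the ubiquitin ligase that turns over ErbB3, had a change of 0.00 (SE 0.14, adjusted p = 0.994). Without replicate 1 only 2 of the 18 rose and none fell, the adjusted p of Errfi1 being 0.067 and that of Lrig1 0.0518.

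**Figure D5:**
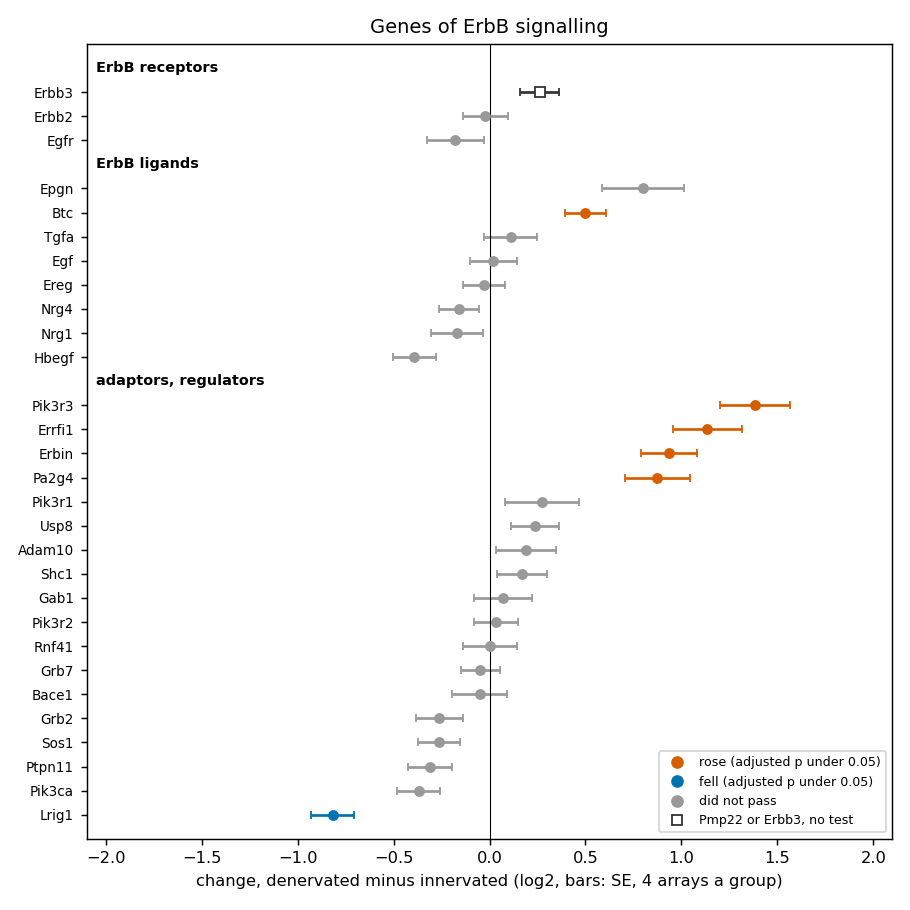
Change from innervated to denervated muscle (log2, bars are SE from limma over 4 arrays a group) for ErbB receptors, ligands, and adaptors and regulators. Pik3r3, Errfi1, Erbin and Pa2g4 (orange) lie between 0.88 and 1.38, Btc at 0.50 and Lrig1 (blue) at -0.82, while the receptors, Erbb3 among them as an open square with no test, lie between -0.18 and 0.26.

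The 5 genes most like Erbb3 over the 8 arrays, by the same rule, were Tor1aip2 (Pearson r = 0.938), Ccdc93 (0.928), Pitpnm2 (0.925), the growth arrest gene Gadd45a (0.922) and Tmem179b (0.92). With group means subtracted their r was 0.553 to 0.763, and without replicate 3 (6 arrays) 0.724 to 0.818. Gadd45a had means of 8.04 ± 0.30 in innervated and 10.57 ± 0.27 in denervated muscle (SD, n = 4), given here as a description, with no test.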

How the data were processed

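Log2 intensities, 1 per probe set and array, were produced by the authors with GCOS and RMA, per the submitters' processing notes, which also name the build mm9; versions, filters and the probe set definition are not stated in the sources at hand. Per the labels' protocols, 50 ng of TRIzol-extracted RNA was amplified, fragmented to about 85 bases and biotin-labelled. Of 16755 probe sets, 14996 carried 1 gene symbol, 1019 several and 740 none; the brightest was used for the 135 genes with more than 1, leaving 14860, of which 14805 had an Entrez ID in RefSeq's GRCm38.p6 table. Promoter windows came from RefSeq (GRCm38.p6), and 1 of the 2 genes, Pmp22, was matched; the build differs from mm9, so no gene coordinates were joined to the values.

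Groups were compared with limma 3.58.1 in R 4.3.3 (group plus replicate number as terms, 3 residual and 4.57 prior degrees of freedom, moderated two-sided test, Benjamini-Hochberg over all 14860 genes, threshold 0.05), tested first on simulated data. The study's design sets each denervated muscle against the contralateral one, so the replicate number is a block, although the labels do not tie equal numbers to 1 animal. Deviations from the group means of same-number arrays correlated at 0.234, -0.0303, 0.453 and 0.349 for numbers 1 to 4, so number 2 gave no sign of pairing, and innervated replicates 1 and 2 did not match the denervated array of their own number best; values without the block are printed where a call changes. The genes, the 19 lists (202 genes, 181 measured) and the tests were chosen with earlier results of these data known, and lists are described by counts and medians. Named were Pmp22 and Erbb3, measured family members, Mbp, Sox10 and S100b, the 3 called genes of each list with the largest change in its main direction and 1 in the other, and the 5 genes most like each of the pair. Further genes complete a count or were picked with their values in view. The number of arrays limits the precision.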

Additional observations from a re-analysis of the deposited data

Results flagged for a closer look

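Among 50 named genes, each looked at in both groups, 6 of 100 sets of 4 arrays held a value whose gap to its nearest neighbour exceeded the critical share of the group's range in Dixon's test, and chance alone gives about 1 such set in 20. Denervated Erbb3 was flagged because replicate 4 (5.52) stood below 3 nearly equal arrays, with a gap of 0.838 of the range. Denervated Tor1aip2 was lowest on the same array (6.28), but it was picked for its likeness to Erbb3 on these arrays and is no separate sign. Denervated replicate 3 was the low array for Errfi1 (7.72) and Pygm (9.07). Innervated replicate 3 was the high array for Fgd4 (7.26), and denervated replicate 1 that for Emp2 (6.48).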

How the results depend on the processing

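The Pmp22 difference of -1.63 lay between -1.70 and -1.60 under 8 alternatives (no replicate block, random block, quantile, median and cyclic loess normalization, dimmest 25% left out, mean of probe sets, array weights) and between -1.92 and -1.40 when a replicate was left out; that of Erbb3 lay between 0.26 and 0.27, and 0.21 and 0.29. Neither value could move without the block, with a random block, with dim genes left out or with the mean of probe sets. This is because the groups are balanced over replicates and each gene has 1 probe set. Of all genes 1255 passed, with 800 without the replicate block (785 shared), 2200 with array weights, and 347 to 1643 with a replicate left out. Of 179 listed genes other than Pmp22 and Erbb3, 31 passed, 24 without the replicate block, 54 with array weights, and 14 to 41 with a replicate left out, the fewest without replicate 1 and the most without replicate 3. Genes near 0 that passed in none of the settings that turned their sign were Emp1 and Sox10 with array weights (0.0242 and -0.0422), and others when a replicate was left out: Erbb2 ran from -0.0586 to 0.0787, Emp1 from -0.12 to 0.0084, Emp2 from -0.0603 to 0.0501, Lim2 from -0.127 to 0.0031, Sox10 from -0.0464 to 0.156 and S100b from -0.0236 to 0.382. For the 48 other named genes, 493 values kept direction and side of the threshold, 55 dropped out of it and 18 came in. The median change of all genes lay between -0.0338 and 0.0186 under every setting. Of the named genes, Lim2 and Ugt8a have no value where the dimmest genes are left out. Of the 8 measured ErbB ligands 4 remain there, and Epgn is not among them. The causes were not tested. With no detection values at hand, low levels such as those of Erbb3, Nrg1 and Nrg4 cannot be told from background.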
